A study of Mus musculus with 221 samples.

Results

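Neuronal microtubules were followed through 10 genes: the beta-tubulin Tubb3, the stathmins Stmn1, Stmn2, Stmn3 and Stmn4, the doublecortin family members Dcx and Dclk1, and the microtubule-associated proteins Mapt, Map1b and Map2. They were chosen by name from a table of 23244 features, and all 10 were present, with Map1b and Map2 listed under their older names Mtap1b and Mtap2. The table holds 221 single cells from the medial neocortex, cut out of C57BL/6J mouse fetuses late in gestation (E18.5). The cells came from 2 pools of 8 neocortices each, 99 of them from pool 2 and the rest from pool 1, captured on a Fluidigm C1 microfluidic chip and amplified as full-length cDNA. No group was treated, and the study's title concerns Hopx-dependent basal radial glia. The classes compared here were radial glia-like, interneuron-like, newborn neuron-like and excitatory neuron-like cells of the same 2 pools, named from marker genes that include none of the 10.

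Microtubules are hollow polymers of alpha- and beta-tubulin that grow and shrink at their ends. Stathmins bind free tubulin dimers and favour disassembly. Doublecortin and the classical microtubule-associated proteins bind along the polymer and stabilise it. In the developing cortex these proteins shape the migrating neuron and its axon and dendrites, and several of them serve as standard markers of young neurons.

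The 10 genes lie on 9 chromosomes (GENCODE annotation of GRCm38, whole gene spans). The stathmin genes are apart from each other, with Stmn1 at chr4:134468320-134473843, Stmn2 at chr3:8509360-8561606 and Stmn4 at chr14:66344296-66361680 on the plus strand, and Stmn3 at chr2:181306459-181314500 on the minus strand. Tubb3 spans chr8:123411424-123422015, Dclk1 chr3:55242364-55539068, Mapt chr11:104231390-104332090 and Map2 chr1:66175273-66442583, all on the plus strand. Dcx, at chrX:143855842-143933311, and Map1b, at chr13:99421446-99516540, are on the minus strand.

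Values are TPM, transcript shares that add up to 1000000 in every cell and are scaled per transcript length, so that levels of different genes can be set side by side. No value is 0, because in every cell all features without signal share 1 lowest value, here called the floor, between 1.332 and 2.998 TPM. A gene counts as above the floor in a cell when it exceeds that value. Between 2146 and 6727 genes per cell were above the floor, with medians of 4071.5 in pool 1 and 3954 in pool 2. Read depth per cell is unknown. Ward clusters of the cells on marker genes gave 24 radial glia-like cells (10 in pool 1 and 14 in pool 2), 26 interneuron-like (15 and 11), 25 newborn neuron-like (19 and 6) and 137 excitatory neuron-like cells (71 and 66), and 9 cells stayed unnamed. The newborn neuron-like class was led by Sstr2, Pcp4 and Rnd2, and Eomes, a transcription factor of intermediate progenitors, exceeded the floor in 18 of its 25 cells. No separate intermediate progenitor-like class was found. Of the 24 radial glia-like cells, 13 were in a cluster led by cell cycle genes, and 3 formed a cluster of pool 2 alone. The radial glia-like class also carried neuron transcripts. Neurod6, a transcription factor of excitatory neurons, exceeded 100 TPM in 14 of 24 radial glia-like cells and in 12 of 26 interneuron-like cells. These cells are called doubtful, and values without them are given for the results they move most. Without them 10 radial glia-like cells (3 in pool 1 and 7 in pool 2) and 14 interneuron-like cells (7 in each pool) remain. Since Neurod6 is a neuron transcript, their removal from the radial glia-like class favours larger differences in neuronal genes. A search of the other 3 classes for cells with Gad1 or Gad2, markers of interneurons, above 100 TPM added no further cell. Median numbers of genes above the floor were 4691.5 in radial glia-like, 3367 in interneuron-like, 4058 in newborn neuron-like and 4043 in excitatory neuron-like cells, and their part in the differences was not tested.

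The 4 stathmins are paralogs, which bears on how well their reads can be told apart. In the GENCODE annotation of GRCm38 (the mm10 assembly) their coding sequences are 450 bases long for Stmn1, 540 for Stmn2, 543 for Stmn3 and 570 for Stmn4. Aligned pairwise, 70.4% to 73.6% of the aligned bases are identical, and the longest run that any pair shares is 43 bases, between Stmn1 and Stmn2. The first 60 coding bases are shown because Stmn1 and the others differ in how they begin, with the start codon in capitals. The segment that follows the start in Stmn2, Stmn3 and Stmn4 belongs to the extension that anchors these proteins to membranes, which Stmn1 lacks.
Stmn1: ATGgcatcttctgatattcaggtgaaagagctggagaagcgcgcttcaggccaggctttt
Stmn2: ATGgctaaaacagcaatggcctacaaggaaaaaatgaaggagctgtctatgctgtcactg
Stmn3: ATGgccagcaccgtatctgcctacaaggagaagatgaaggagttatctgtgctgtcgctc
Stmn4: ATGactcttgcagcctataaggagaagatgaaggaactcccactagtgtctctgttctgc

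The 60 coding bases that all 4 share best lie in the tubulin-binding stathmin domain, and are shown because reads of such a stretch are the hardest to assign to 1 stathmin. Capitals mark the 41 bases that are the same in all 4.
Stmn1: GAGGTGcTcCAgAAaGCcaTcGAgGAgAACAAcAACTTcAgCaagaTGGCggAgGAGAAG
Stmn2: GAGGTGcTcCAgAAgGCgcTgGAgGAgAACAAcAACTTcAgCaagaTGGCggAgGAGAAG
Stmn3: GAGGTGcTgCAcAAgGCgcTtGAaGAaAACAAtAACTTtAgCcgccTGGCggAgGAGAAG
Stmn4: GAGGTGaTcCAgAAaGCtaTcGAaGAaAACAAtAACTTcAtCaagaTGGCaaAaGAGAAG

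How far shared stretches moved reads between the stathmins was not tested. Mc1r, which lies beside Tubb3, was above the floor in 3 of 221 cells.

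Across all cells Stmn1 was far above the other members. Stmn1, also called oncoprotein 18, averaged 17803 TPM (1718.93 to 42679 TPM in single cells), which is 1.78% of all transcripts by TPM and the third highest mean of the 23244 features. Tubb3 followed with a mean of 1940.76 TPM and Stmn3 with 1232.6 TPM. Stmn2 averaged 951 TPM and Map1b 432 TPM. Lower means were found for Mapt (183 TPM), Dcx (172 TPM), Map2 (96.6 TPM), Dclk1 (90.7 TPM) and Stmn4 (86.1 TPM). Tubb3, Stmn1, Stmn3 and Map1b were above the floor in all 221 cells. Stmn2 was above it in 215, Dcx in 213, Mapt in 211, Map2 in 206 and Dclk1 in 194. Stmn4 was the exception, with 146 of 221 cells (66.1%, exact Clopper-Pearson 95% interval 59.4 to 72.3%). The interval covers counting error only. The pools gave close means for most members, for example 17205 TPM in pool 1 and 18540 TPM in pool 2 for Stmn1. Together the 10 genes made up 1.11% of TPM in the mean radial glia-like cell, 2.16% in interneuron-like, 1.87% in newborn neuron-like and 2.62% in excitatory neuron-like cells.

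**Figure D1:**
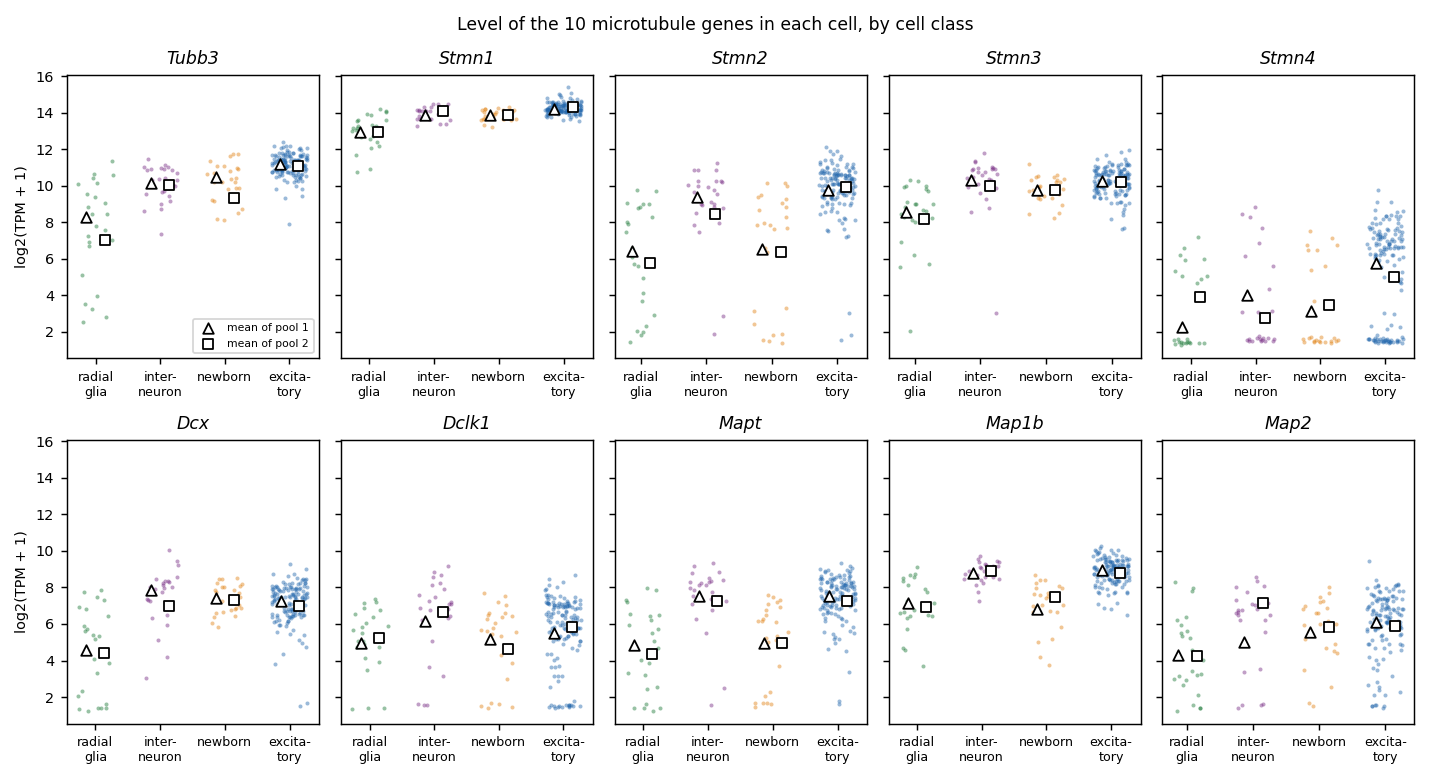
Level of each of the 10 genes as log2(TPM + 1) (vertical axis) in single cells (dots) of the 4 classes, with the mean of pool 1 (triangle) and pool 2 (square). Stmn1 is high in every cell, Stmn2 spreads widely among newborn neuron-like and radial glia-like cells, and Stmn4 has many cells at the floor in every class.

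Stmn1 was the highest stathmin in 221 of 221 cells. Stmn2, known as SCG10 and found at growth cones, took 2.24% of the summed stathmin TPM in radial glia-like cells, 4.52% in interneuron-like, 1.99% in newborn neuron-like and 5.43% in excitatory neuron-like cells. The share of Stmn3, known as SCLIP, was 5.07% in radial glia-like, 8.01% in interneuron-like, 5.93% in newborn neuron-like and 6.05% in excitatory neuron-like cells. Stmn4, known as RB3, never took more than 0.501% in any class. The summed level of the 4 stathmins averaged 10154 TPM in radial glia-like cells, 18982 TPM in interneuron-like, 16614 TPM in newborn neuron-like and 22687 TPM in excitatory neuron-like cells.

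Stmn2 was also set against Stmn1 within the same cell. The mean difference of log2(TPM + 1), Stmn2 minus Stmn1, was -6.53 and -7.20 in the 2 pools of radial glia-like cells and -7.34 and -7.50 in newborn neuron-like cells. It was -4.50 and -5.63 in interneuron-like cells and -4.42 in both pools of excitatory neuron-like cells. The pool means of the first pair of classes did not overlap with those of the second pair. The medians over cells put radial glia-like below newborn neuron-like cells, where the means had the opposite order, and they were -6.40 and -6.90 in radial glia-like, -4.45 and -5.07 in interneuron-like, -5.82 and -5.80 in newborn neuron-like and -4.05 and -4.22 in excitatory neuron-like cells. The difference of Stmn3 to Stmn1 ranged over a narrower band, from -4.81 in pool 2 of the radial glia-like class to -3.57 in pool 1 of the interneuron-like class. Stmn2 exceeded Stmn3 in 5 of 24 radial glia-like cells, 4 of 26 interneuron-like, 3 of 25 newborn neuron-like and 57 of 137 excitatory neuron-like cells. No test was made on these differences.

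**Figure D2:**
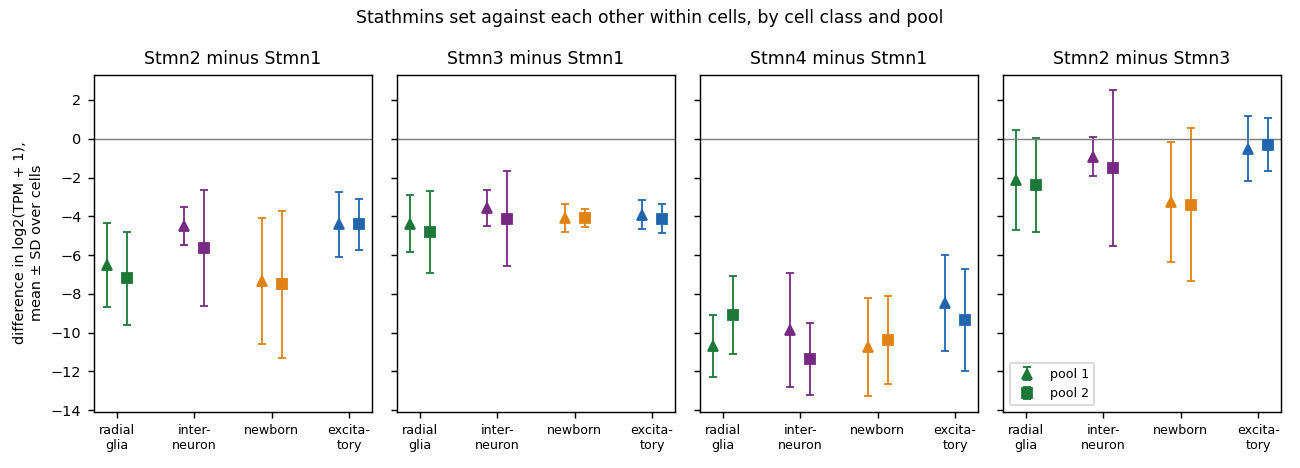
Differences in log2(TPM + 1) between 2 stathmins of the same cell (vertical axis), as mean ± SD over the cells of each class, with pool 1 as triangles and pool 2 as squares. The pool means of Stmn2 minus Stmn1 lie between -7.50 and -6.53 in radial glia-like and newborn neuron-like cells and between -5.63 and -4.42 in the other 2 classes, while Stmn3 minus Stmn1 lies between -4.81 and -3.57 in all 4.

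Within the newborn neuron-like class Stmn2 varied widely. It was above 10 TPM in 17 of 25 cells, with a lowest value of 1.63 TPM, a median of 228 TPM and a highest value of 1135.76 TPM. Stmn1 in the same cells ran only from 9569 to 19929 TPM. Stmn2 rose with the number of genes above the floor in these cells (Pearson r = 0.55), and the part of detection was not tested. The median of Stmn2 was 218 TPM in the 18 with Eomes and 251 TPM in the 7 without. A wide spread was not particular to this class, since 18 of 24 radial glia-like cells had Stmn2 above 10 TPM (range 1.75 to 866 TPM). Stmn4 exceeded the floor in 11 radial glia-like cells of 24, 12 of 26 interneuron-like, 12 of 25 newborn neuron-like and 77.4% of the 137 excitatory neuron-like cells.

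**Figure D3:**
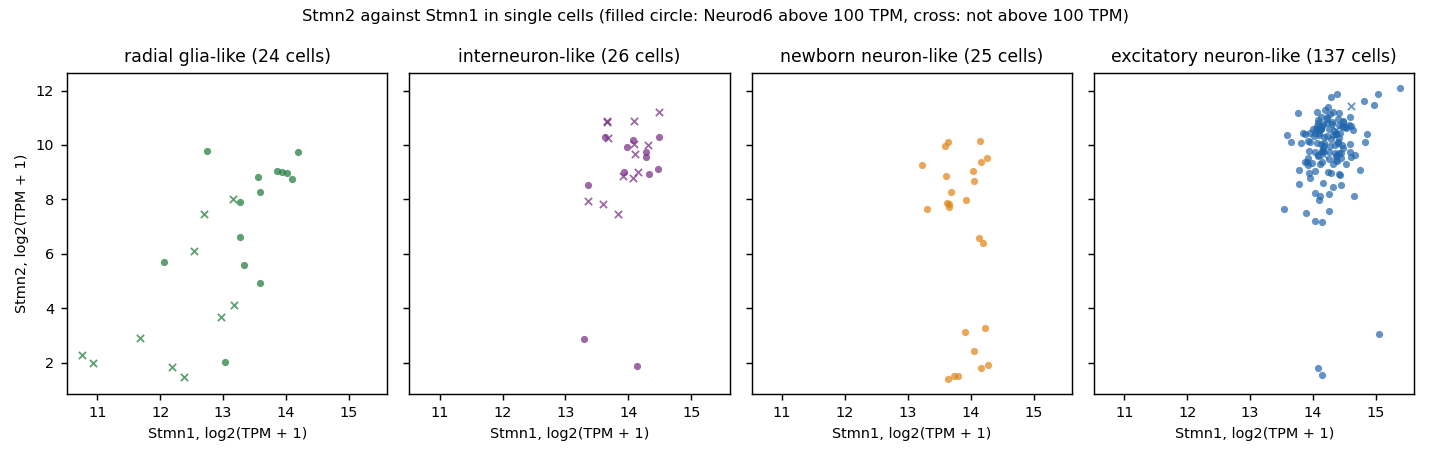
Stmn2 (vertical axis) against Stmn1 (horizontal axis) as log2(TPM + 1) in each cell of the 4 classes. Circles have Neurod6 above 100 TPM (14 of 24 radial glia-like and 12 of 26 interneuron-like cells) and crosses do not, and the radial glia-like circles lie mostly above the crosses on both axes.

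Differences between classes were tested with limma on mean log2(TPM + 1) per class and pool (n = 2 pools each), with p-values adjusted by Benjamini-Hochberg over 10689 genes. Calls needed an adjusted p under 0.05 together with a change of 1 or more, up or down, on the log2 scale. The log2(TPM + 1) scale understates changes of low genes. The pool is the replicate, and cells are not. The 6 comparisons share classes with each other and 1 estimate of the spread, so their values stand side by side and are not independent.

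The first comparison sets cells like the stem cells of the cortex against cells like their main product, the excitatory neurons. Of the 10 members, 7 were lower in radial glia-like cells, none was higher and 3 did not pass. Of all 10689 genes tested, 5.6% were called in either direction and 1.22% were called lower. The median log2 difference of the members was -2.09, against 0.01 for all genes tested.

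Tubb3, the neuron-specific beta-tubulin detected by the TuJ1 antibody, ran from 4.69 TPM over a median of 286 TPM to 2604.02 TPM in radial glia-like cells, against 239 TPM, a median of 2394.88 TPM and 5308.9 TPM in excitatory neuron-like cells. The cells of the classes overlapped, but the pool means did not, with log2 levels of 8.30 and 7.03 in radial glia-like cells and 11.18 and 11.08 in excitatory neuron-like cells. Tubb3 fell by 3.46 ± 0.44 on the log2 scale (SE; limma adjusted p = 0.00118). Its RefSeq promoter window on GRCm38.p6, chr8:123411303-123411602 on the plus strand, is shown with 2 matches to GGGCGG in capitals.
Tubb3: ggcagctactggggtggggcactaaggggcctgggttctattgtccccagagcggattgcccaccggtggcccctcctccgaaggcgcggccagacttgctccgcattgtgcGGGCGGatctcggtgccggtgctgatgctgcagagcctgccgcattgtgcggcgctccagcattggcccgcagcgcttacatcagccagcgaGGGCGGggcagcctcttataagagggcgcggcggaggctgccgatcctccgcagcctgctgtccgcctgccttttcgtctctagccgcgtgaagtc

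Stmn2 had the largest difference among the members. It ran from 1.75 TPM over a median of 81.8 TPM to 866 TPM in radial glia-like cells, against 1.88 TPM, a median of 1091.14 TPM and 4395.36 TPM in excitatory neuron-like cells. The ranges overlapped, with Stmn2 above 10 TPM in 18 radial glia-like cells of 24 and in 134 of 137 excitatory neuron-like cells. Stmn2 fell by 3.75 ± 0.45 (limma adjusted p = 0.00103). Stmn1 was high in both classes, from 1718.93 TPM over a median of 9172 TPM to 18795 TPM in radial glia-like cells, against 11964 TPM, a median of 19414 TPM and 42679 TPM in excitatory neuron-like cells. It fell by 1.30 ± 0.15 (limma adjusted p = 0.000783). That call rests on the scale: Stmn1 had the third highest level in all 4 profiles of the 2 classes, so quantile normalization, which sets values of equal rank equal, gives a difference of 0. Stmn3 had medians of 434 TPM in radial glia-like cells and 1259.17 TPM in excitatory neuron-like cells. It fell by 1.89 ± 0.31 (limma adjusted p = 0.00317). Its RefSeq window, chr2:181314451-181314750 on the minus strand, has 1 match to CAGATG, a sequence of the E-box kind bound by basic helix-loop-helix factors, in capitals.
Stmn3: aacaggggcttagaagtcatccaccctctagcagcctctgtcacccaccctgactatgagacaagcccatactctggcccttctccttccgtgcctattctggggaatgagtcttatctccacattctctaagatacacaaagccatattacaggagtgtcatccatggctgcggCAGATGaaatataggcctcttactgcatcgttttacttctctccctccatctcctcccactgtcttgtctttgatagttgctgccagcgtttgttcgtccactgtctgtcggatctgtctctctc

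Stmn4 had a median of 1.96 TPM in radial glia-like cells, against 90.98 TPM in excitatory neuron-like cells. Its difference of -2.29 ± 0.68 did not pass (limma adjusted p = 0.0715), with -3.49 in pool 1 and -1.08 in pool 2. Stmn4 was called in 3 of 19 alternatives, with profiles weighted by cells (-2.16, limma adjusted p = 0.0204), without radial glia-like pool 2 and without the radial glia-like cluster of pool 2 alone.

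Dcx, a protein of migrating neurons whose loss disturbs cortical layering in humans, exceeded the floor in 18 radial glia-like cells of 24 (median 36.99 TPM) and in 136 of 137 excitatory neuron-like cells (median 167 TPM). It fell by 2.62 ± 0.50 (limma adjusted p = 0.00781). Dclk1, a kinase with a doublecortin domain, did not share this difference. Its medians were 38.3 TPM in radial glia-like cells and 74.2 TPM in excitatory neuron-like cells, and the difference of -0.59 ± 0.55 did not pass (limma adjusted p = 0.639). One of the 2 overlapping RefSeq windows of Dcx, chrX:143933170-143933469 on the minus strand, has 1 match to TATAAA in capitals.
Dcx: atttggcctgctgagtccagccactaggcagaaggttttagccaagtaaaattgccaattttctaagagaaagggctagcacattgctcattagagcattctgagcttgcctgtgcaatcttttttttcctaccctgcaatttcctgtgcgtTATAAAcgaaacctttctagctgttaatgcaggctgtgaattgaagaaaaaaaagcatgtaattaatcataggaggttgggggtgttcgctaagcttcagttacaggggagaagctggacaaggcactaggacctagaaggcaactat

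The 3 windows are shown because these genes were also the members lower in radial glia-like than in newborn neuron-like cells. RefSeq windows were matched for 6 of the 10 members, each with 250 bases before and 50 after the start. On both strands, GGGCGG occurs in 35.7% of 32851 such windows, CAGATG in 17.2% and TATAAA in 13.6%. The E-box CAGCTG (16.3%) and the left and right parts of the RE1 element of the repressor REST (0.371% and 0.137%) were also searched and not found in the 3 windows. No motif was common to all 3. Members not called between radial glia-like and newborn neuron-like cells had such matches as well. The window of Map1b has 1 match to CAGATG, 1 to TATAAA and 2 to GGGCGG, and that of Map2 has 5 to GGGCGG. The windows of Dclk1 have no match.

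Mapt, which encodes tau, the axonal microtubule-associated protein, exceeded the floor in 20 radial glia-like cells of 24 (median 28.9 TPM) and in 136 of 137 excitatory neuron-like cells (median 195 TPM). It fell by 2.80 ± 0.51 (limma adjusted p = 0.00587). Map1b, an early microtubule-associated protein of growing axons, was above the floor in every cell of both classes, with a median of 131 TPM in radial glia-like cells, against 497 TPM in excitatory neuron-like cells. It fell by 1.83 ± 0.41 (limma adjusted p = 0.0178). Map2, which lines dendrites, had medians of 12.4 TPM in radial glia-like cells and 76.7 TPM in excitatory neuron-like cells, and -1.74 ± 0.67 did not pass (limma adjusted p = 0.170).

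Map1b also lost its call without either radial glia-like pool. When either pool of the excitatory neuron-like class was left out, 3 of the 10 members stayed called in limma, against 7 with both pools. Without the doubtful cells all differences were larger: Tubb3 was at -5.68 (limma adjusted p = 0.00123), Stmn2 at -5.89 (limma adjusted p = 0.00166) and Dcx at -4.17 (limma adjusted p = 0.0123). The radial glia-like cells left out were picked by a neuron transcript, Neurod6. Their removal favours larger differences in neuronal genes, so these values are no independent check of the calls.

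Radial glia-like cells varied widely among themselves. Median Stmn2 was 369 TPM in the 14 cells with Neurod6 above 100 TPM and 9.16 TPM in the other 10. Tubb3 had medians of 705 and 68.9 TPM in these sets, Dcx 72.2 and 5.37 TPM, and Mapt 79.1 and 4.66 TPM. Stmn1 differed less, with 12168 TPM in the 14 cells and 5640.32 TPM in the 10. Dclk1 differed less as well, at 57.8 and 30.7 TPM. Whether the neuronal transcripts stem from these cells or from others was not tested. The cluster of 13 led by cell cycle genes had a median Stmn1 of 9129 TPM and a median Tubb3 of 461 TPM, against 5753.16 and 288 TPM in the 8 cells of the cluster led by Aldoc, Id3 and Mfge8. The 3 cycling cells without a class name had 21136 to 31159 TPM of Stmn1, while 2 of the 3 had Stmn2 under 10 TPM.

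**Figure D4:**
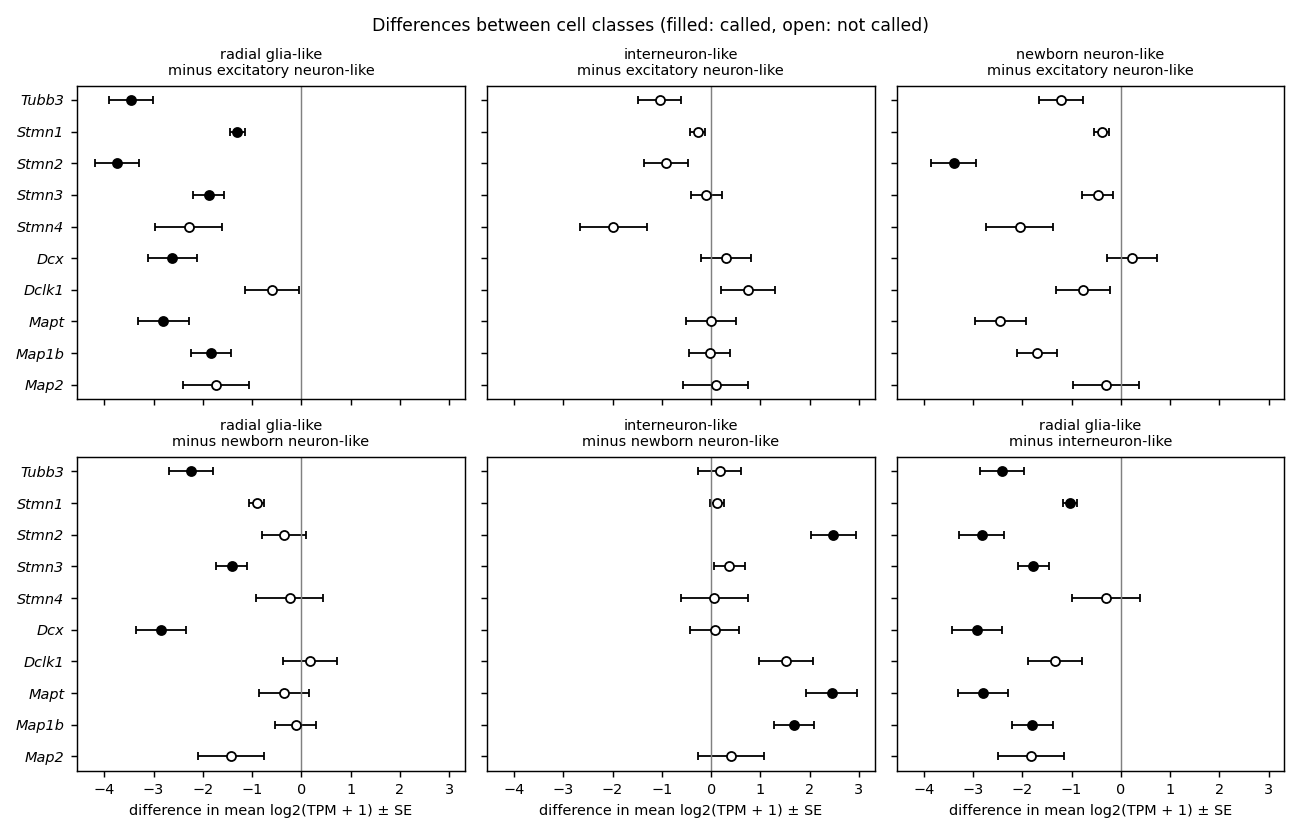
Differences in mean log2(TPM + 1) ± SE (horizontal axis) for the 10 genes in 6 comparisons of classes, with filled points for called genes and open points for the rest. Radial glia-like cells are lower for 7 genes against excitatory neuron-like and interneuron-like cells, whereas Stmn2, Mapt and Map1b set interneuron-like above newborn neuron-like cells.

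Radial glia-like against newborn neuron-like cells asks which members differ between these 2 classes, whose descent from each other was not tested. Tubb3, Stmn3 and Dcx were lower in radial glia-like cells and 7 members did not pass. Of all genes tested, 4.56% were called and 1.21% were called lower in radial glia-like cells. Tubb3 had medians of 286 TPM in radial glia-like and 1305.29 TPM in newborn neuron-like cells, and fell by 2.25 ± 0.44 (limma adjusted p = 0.0121). Dcx fell by 2.85 ± 0.50 (limma adjusted p = 0.00594), and all 25 newborn neuron-like cells held between 56.6 and 365 TPM, around a median of 178 TPM. Stmn3 fell by 1.42 ± 0.31 (limma adjusted p = 0.0205), with a median of 434 TPM in radial glia-like and 907 TPM in newborn neuron-like cells. Stmn1 passed the p threshold but not the size limit, with -0.91 ± 0.15 (limma adjusted p = 0.00401). Without the doubtful cells Stmn1 was called, at -1.53 (limma adjusted p = 0.0158), as it was with a marker gate and with clusters from variable genes. Stmn2 (-0.35 ± 0.45, limma adjusted p = 0.742), Mapt (-0.35 ± 0.51, limma adjusted p = 0.774) and Map1b (-0.12 ± 0.41, limma adjusted p = 0.913) did not pass. Without the doubtful cells Stmn2 stood at -2.50 (limma adjusted p = 0.0523), Mapt at -1.84 (limma adjusted p = 0.156) and Map1b at -1.07 (limma adjusted p = 0.259). With the marker gate Mapt was called, at -2.01 (limma adjusted p = 0.0371). Without the doubtful cells Tubb3 stood at -4.46 (limma adjusted p = 0.0107) and Dcx at -4.40 (limma adjusted p = 0.0158). Without radial glia-like pool 2 or newborn neuron-like pool 1, Dcx alone stayed called.

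Newborn neuron-like against excitatory neuron-like cells compares classes named for younger and older neurons, an order in age that was not tested. Median Neurod6 was 2059.92 TPM in newborn neuron-like and 1690.5 TPM in excitatory neuron-like cells. Of 12 excitatory neuron markers, 7 exceeded the floor in at least 50% of the former and 4 in the latter. The newborn neuron-like class also depends on its definition: 12 of its 25 cells kept the name with clusters from variable genes. The marker gate named 66 cells newborn neuron-like, 18 of them in the main class. Stmn2 was the 1 member called, lower in newborn neuron-like cells by 3.39 ± 0.45 on the log2 scale (limma adjusted p = 0.0145). Of all genes 0.103% were called in this comparison, and 0.0281% lower. Mapt was at -2.45 ± 0.51 and Map1b at -1.71 ± 0.41, and neither passed (limma adjusted p = 0.162 and 0.201). Of the 18 alternatives, profiles weighted by cells alone gave these 2 genes a call. Mapt had a median of 46.8 TPM in newborn neuron-like cells, against 195 TPM in excitatory neuron-like cells. Map1b had a median of 156 TPM in newborn neuron-like cells, against 497 TPM in excitatory neuron-like cells. Dcx stood at 0.23 ± 0.50 (limma adjusted p = 0.947), with medians of 178 and 167 TPM. The call of Stmn2 was lost in 6 of 18 alternatives, with the sign kept and differences from -3.61 to -1.40 over all 18. It was lost where the classes changed, with clusters from variable genes and with the marker gate. Without the doubtful cells it was lost too (-3.39, limma adjusted p = 0.203), although neither compared class held a doubtful cell. The difference was unchanged there, and the fit changed only through the other classes, which share 1 estimate of the spread. It was also lost with either pool of the excitatory neuron-like class left out and with newborn neuron-like pool 2 left out.

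Interneuron-like cells, the inhibitory neurons that enter the cortex from the ventral forebrain, were set against excitatory neuron-like cells of the same cortex. By limma, 0 of the 10 members were called, 2 had an unadjusted p below 0.05 (Tubb3 and Stmn4), and 0.627% of all genes were called. By limma, 808 of all genes had an unadjusted p below 0.05. The members' median log2 difference was -0.07, against -0.09 for all genes tested (0.03 with quantile normalization). Stmn1 had medians of 17253 TPM in interneuron-like and 19414 TPM in excitatory neuron-like cells, with -0.27 ± 0.15, a sign that turns with quantile normalization (0.44). Mapt had medians of 243 and 195 TPM in these classes, and its difference was 0.0007 ± 0.51. Tubb3 stood at -1.05 ± 0.44 (limma adjusted p = 0.593), with -1.05 and -1.04 in the pools. Stmn4 stood at -1.99 ± 0.68 (limma adjusted p = 0.392), with medians of 2.24 TPM in interneuron-like and 90.98 TPM in excitatory neuron-like cells. Dclk1 was at 0.74 ± 0.55 (limma adjusted p = 0.881), with medians of 126 and 74.2 TPM.

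Interneuron-like against newborn neuron-like cells compares 2 kinds of young neuron. Stmn2, Mapt and Map1b were called, all 3 higher in interneuron-like cells, while 2.33% of all genes were called and 0.683% were called higher. Stmn2 ran from 2.68 TPM over a median of 782 TPM to 2399.18 TPM in interneuron-like cells, against 1.63 TPM, 228 TPM and 1135.76 TPM in newborn neuron-like cells. It was higher by 2.48 ± 0.45 (limma adjusted p = 0.0148). Mapt was higher by 2.45 ± 0.51 (limma adjusted p = 0.0277), with medians of 243 and 46.8 TPM. Map1b was higher by 1.68 ± 0.41 (limma adjusted p = 0.0489, and 0.0600 with the pool as a replicate block). Stmn1 differed by 0.12 ± 0.15 (limma adjusted p = 0.749) and Stmn3 by 0.37 ± 0.31 (limma adjusted p = 0.610). The 3 calls are not firm, since 0 of them held without interneuron-like pool 1, without newborn neuron-like pool 2, without the doubtful cells or with a gate on single markers in place of clusters.

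Radial glia-like cells were lower than interneuron-like cells in 7 of the 10 members. The comparison shares its radial glia-like profiles with the one against excitatory neuron-like cells. Of all genes 9.04% were called, and 1.77% were called lower. The differences were -2.92 ± 0.50 for Dcx (limma adjusted p = 0.00309), -2.83 ± 0.45 for Stmn2 (limma adjusted p = 0.00228), -2.80 ± 0.51 for Mapt (limma adjusted p = 0.00444) and -2.42 ± 0.44 for Tubb3 (limma adjusted p = 0.00450). Map1b was at -1.80 ± 0.41, Stmn3 at -1.78 ± 0.31 and Stmn1 at -1.03 ± 0.15. Stmn4 was not called (-0.30 ± 0.68, limma adjusted p = 0.837), with medians of 1.96 TPM in the radial glia-like class and 2.24 TPM in the interneuron-like class. The median of all genes was 0.12 in this comparison and -0.04 with quantile normalization, under which the call of Stmn1 was lost (-0.44, limma adjusted p = 0.0814). Stmn1 also lost its call with the log2 of mean TPM, with the marker gate and without interneuron-like pool 2. Map1b lost its call without either radial glia-like pool or without interneuron-like pool 2, and Tubb3 with the log2 of mean TPM (-1.20, limma adjusted p = 0.107). Without the doubtful cells, which leaves 3 radial glia-like cells in pool 1, the differences were larger. They were -5.60 for Stmn2 (limma adjusted p = 0.00253), -4.85 for Tubb3 (limma adjusted p = 0.00253) and -4.15 for Mapt (limma adjusted p = 0.0111). The call of Stmn1 held at -1.59 (limma adjusted p = 0.00679).

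By class, the pool means of Dcx put radial glia-like cells at log2 levels of 4.56 and 4.44, below all pools of the other 3 classes, which lay between 6.99 and 7.85 and were not apart by the test. For Stmn2 the order from low to high was radial glia-like, newborn neuron-like, interneuron-like and excitatory neuron-like, with neighbours 1 and 2 not apart by the test, and neighbours 3 and 4 not apart either. Without the doubtful cells no pair of neighbours passed, with limma adjusted p of 0.0523 between radial glia-like and newborn neuron-like cells and 0.0642 between interneuron-like and newborn neuron-like cells. Mapt was lower in radial glia-like than in interneuron-like and excitatory neuron-like cells, while its call between interneuron-like and newborn neuron-like cells was lost in 6 of 18 alternatives. Map1b had calls in the same 3 comparisons, but that between interneuron-like and newborn neuron-like cells was lost in 10 of 18 alternatives, and the one that sets radial glia-like cells against excitatory neuron-like ones was lost with any 1 of the 4 profiles left out. Tubb3 and Stmn3 were lower in radial glia-like cells than in each of the other 3 classes, although their calls against newborn neuron-like cells were lost in 3 (Tubb3) and 5 (Stmn3) of 19 alternatives.

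Across the 221 cells the members were loosely tied. The highest Pearson r between members was 0.65 for Mapt with Map1b and the lowest 0.0008 for Dclk1 with Map2, a description over cells that share pools and classes. Within excitatory neuron-like cells Mapt and Map1b still had r = 0.51 (137 cells). By the fixed rule of the 3 non-members with the highest r over all cells, Tuba1a, an alpha-tubulin, led for Tubb3 (r = 0.76), Stmn1 (0.71) and Stmn2 (0.55). Mllt11 led for Stmn3 (0.57), Gng2 for Mapt and Map1b (0.59 each), D0H4S114 for Dcx (0.51), Spint2 for Stmn4 (0.35), Sox11 for Map2 (0.35) and Sh3gl2 for Dclk1 (0.28). Within excitatory neuron-like cells alone, r with the same leading gene was 0.43 for Stmn1, 0.32 for Tubb3 and Map1b, 0.29 for Mapt and 0.26 for Stmn4. It was 0.24 for Map2 and Dclk1, 0.21 for Stmn2 and 0.17 for Stmn3 and Dcx.

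Other genes of the microtubule system were read from 8 lists of 100 genes in all. In radial glia-like cells, set against excitatory neuron-like ones, 4 of 13 other tubulins tested were lower and 1 was higher, where 5.6% of all genes were called (list median -0.12, against 0.01 for all genes tested). Tuba1a, the main alpha-tubulin of young neurons, averaged 7540.4 TPM in radial glia-like cells, against 21717 TPM in excitatory neuron-like cells. It fell by 1.64 ± 0.20 (limma adjusted p = 0.00103). Tubb4a fell as well, to a mean of 111.2 TPM in radial glia-like cells, against 373 TPM in excitatory neuron-like cells (limma adjusted p = 0.00944), while Tubb6 was higher by 1.30 ± 0.28 (limma adjusted p = 0.0156) at a mean of 78.7 TPM, against 1.84 TPM. Of the 5 collapsin response mediators, cytosolic tubulin-binding proteins of the growth cone, 3 were lower, among them Crmp1 (-3.23 ± 0.42, limma adjusted p = 0.00118) and Dpysl5 (-2.58 ± 0.68, limma adjusted p = 0.0403).

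Of all genes tested in this comparison, 5.6% were called. Tpx2, a spindle assembly factor, was higher by 2.998 ± 0.45 (limma adjusted p = 0.00203) and Nav3 fell by 1.73 ± 0.46 (limma adjusted p = 0.0405), the 2 calls among 24 other microtubule-binding proteins tested. Nde1, a dynein regulator needed for progenitor division, was higher by 3.76 ± 0.55 (limma adjusted p = 0.00194), at a mean of 248.9 TPM in radial glia-like cells, against 10.9 TPM in excitatory neuron-like cells, as the 1 call among 10 genes of dynein and Lis1. Fignl1, a fidgetin-like ATPase, was higher by 2.55 ± 0.38 (limma adjusted p = 0.00203), as the 1 call among 7 severing and depolymerizing genes tested. Atat1, the alpha-tubulin acetyltransferase, fell by 2.99 ± 0.42 (limma adjusted p = 0.00163), as the 1 call among 15 modification genes tested. Cdk5r1, the p35 activator of the neuronal kinase Cdk5, fell by 2.22 ± 0.56 (limma adjusted p = 0.0321), as the 1 call among 16 kinase genes. The 5 tubulin folding genes gave 0 calls. In interneuron-like against excitatory neuron-like cells, and in newborn neuron-like against excitatory neuron-like cells, 0 genes of the 8 lists were called by limma. Between interneuron-like and newborn neuron-like cells 2.33% of all genes were called. Of 13 other tubulins tested, Tubb2a was higher (1.90 ± 0.35, limma adjusted p = 0.0153) and Tubb4b lower (-3.12 ± 0.73, limma adjusted p = 0.0415). Of the 5 collapsin response mediators, Dpysl4 was higher (2.78 ± 0.59, limma adjusted p = 0.0290). The remaining lists gave no call. These genes were chosen for mention after their values were seen.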

How the data were processed

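RNA was measured in 221 single cells. The deposited values are TPM. Per the submitters' processing notes the authors used Bowtie2 2.2.6, Cufflinks 2.2.1 and TopHat2 2.0.14 with mm10. Columns add up to 1000000, and 92 spike-in controls are at the floor in all cells. Read counts are not used here and depth is unknown. The highest correlation between any 2 cells was 0.734.

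From these values log2(TPM + 1) was computed. Ward linkage on 10 principal components of 81 standardized markers gave 10 clusters. A name needed at least 3 cells and 3 markers above the floor in 50% of them, and no other class with more markers among the 10 leading genes (cell cycle genes counted against neurons only). Naming was fixed with the clusters in view. No doublet caller was run. Classes rest on other genes of the same cells.

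Means per class and pool (8 profiles) were fitted with limma 3.58.1 in R 4.3.3 (trend, robust, two-sided p-values, Benjamini-Hochberg) on 10689 genes that exceeded the floor in 10 or more cells, markers left out, after tests on simulated data. All 10 members passed the filter. Each pool's classes share animals, which pairs them. Pool deviations correlated by -0.01 to 0.05 between classes. The members and gene lists were chosen with earlier results of these data known. Named were the members, the 3 genes closest to each, and per list the 2 largest calls in each direction in radial glia-like and interneuron-like cells against excitatory neuron-like cells. Tubb2a, Tubb4b and Dpysl4, called between interneuron-like and newborn neuron-like cells, were named outside this rule.

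Alternatives varied pseudocount, filter, summary, scaling, weights, units, clustering and cells, used the pool as a replicate block, and left out each profile. A fit without the radial glia-like cluster of pool 2 alone was added after the data were seen. The suffix A or B of cell names is not explained in the labels. It was A in 19 of 24 radial glia-like and in 74 of 137 excitatory neuron-like cells.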

Additional observations from a re-analysis of the deposited data

How the results depend on the processing

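The settings with 8 and 12 clusters gave the same classes as the main one, so they are left out of this tally. The 21 called member results had 353 values under the other alternatives, of which 299 kept the call, 54 lost it and 0 changed sign. The 39 results that were not called had 637 such values, of which 14 gained a call. The share of all tested genes that were called moved more, and the cause was not tested.

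For radial glia-like against excitatory neuron cells, 5.6% of genes were called, against 10.6% with profiles weighted by cells, 2.39% with the log2 of mean TPM, 2.88% without doubtful cells and 0.767% to 4.97% with 1 profile left out. For newborn against excitatory cells the share was 0.103%, against 0.0561% with quantile normalization and with pool and suffix as units, 0.767% weighted, 0.0211% without a filter, 0.0281% with the log2 of mean TPM and with clusters from variable genes, 0% with a marker gate and without doubtful cells, and 0% to 0.346% with 1 profile left out. For interneuron-like against excitatory cells it was 0.627%, against 2.1% weighted, 0.309% without a filter, 0.0468% with the log2 of mean TPM, 1.1% with the gate, 0% without doubtful cells and 0% to 0.655% with 1 profile left out. For radial glia-like against newborn cells it was 4.56%, against 2.08% with the log2 of mean TPM, 1.09% without doubtful cells and 1.68% to 5.97% with 1 profile left out. For interneuron-like against newborn cells it was 2.33%, against 1.45% with quantile normalization, 0.816% without a filter, 0.936% with the log2 of mean TPM, 1.47% with variable genes, 1.33% with the gate, 0.112% without doubtful cells and 0.571% to 3.43% with 1 profile left out. For radial glia-like against interneuron-like cells it was 9.04%, against 5.5% with the log2 of mean TPM, 5.52% without doubtful cells and 4.22% to 7.3% with 1 profile left out. A profile left alone in its class was assumed to vary like the others.

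With the pool as a replicate block the shares were 5.59%, 0.0748%, 0.674%, 4.8%, 2.23% and 9.38% in the same order, and Map1b in interneuron-like against newborn cells was the 1 member whose call changed.

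Quantile normalization gave 3 higher and 3 lower genes in newborn against excitatory cells (8 and 3 otherwise), 37 and 27 in interneuron-like against excitatory cells (29 and 38), 90 and 65 in interneuron-like against newborn cells (73 and 176), and 512 and 362 in radial glia-like against interneuron-like cells (777 and 189).

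Stmn2 minus Stmn1 was -6.35 with log2(TPM + 10), -5.35 with the log2 of mean TPM and -6.15 with the gate in radial glia-like cells, where it was -6.86 as reported (-7.20 to -6.53 by pool). In newborn cells these were -6.82, -5.47 and -5.77 (-7.42, and -7.50 to -7.34 by pool), and in excitatory cells -4.37, -4.02 and -4.38 (-4.42 in each pool). In interneuron-like cells the pools gave -5.63 to -4.50. Above 10 TPM, the mean number of members per cell was 7.66 in radial glia-like, 8.72 in interneuron-like, 8.43 in newborn and 9.37 in excitatory cells, against 8.76, 9.18, 8.98 and 9.59 above the floor.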
